A study of Mus musculus with 6 samples.

Results

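The 47 genes described here are the secreted WNT ligands, their cell-surface receptors and the secreted proteins that strengthen or block them, measured in mouse tumours that model WNT medulloblastoma. They were chosen by gene symbol alone, from 34591 gene rows: 19 WNT ligands, 10 frizzled receptors, the co-receptors Lrp5 and Lrp6 with the kinase-type receptors Ror1, Ror2 and Ryk, 4 R-spondins, 4 dickkopf proteins, and 5 secreted frizzled-related proteins (the Sfrp genes and Frzb). RNA-seq counts came from 6 libraries of total RNA, 3 described in the labels as a control model and 3 as sh2-Ift88, a short hairpin RNA against Ift88, which encodes a subunit of the transport machinery of the primary cilium. Both groups are thus medulloblastoma tissue, and no library of normal brain was analysed here. The labels used here give no strain, allele, age, time point or driver of the tumour, do not say whether the control tumours carried another hairpin, and name no separate animals, so every p-value rests on a spread among samples that may be technical. By its title the study concerns how cilia bear on protein synthesis and cell division in medulloblastoma, and the comparison asks what differs where Ift88 is targeted.

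WNT ligands are lipid-modified proteins that leave the cell with the carrier Wls and bind a frizzled receptor on the next cell. With Lrp5 or Lrp6 as partner, the signal stabilises beta-catenin, which acts with TCF/LEF factors on target genes. With Ror1, Ror2 or Ryk, ligands such as Wnt5a signal without beta-catenin, in cell movement and polarity. R-spondins strengthen the response by keeping frizzled receptors on the surface, dickkopf proteins such as Dkk1 and Dkk2 bind the Lrp co-receptors, and Sfrp proteins bind the ligands outside the cell. In WNT medulloblastoma the pathway is usually switched on inside the cell, below the receptors.

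Libraries are called control 1 to 3 and, as labelled, sh2-Ift88 1 to 3. Levels are in CPM, the count scaled to a common library size, with edgeR's TMM factors. Gene counts summed to between 26802618 and 33772559 per library. Ift88 itself had 13.8, 19.7 and 13.7 CPM across the controls, against 14.7, 16.0 and 14.4 CPM under the sh2-Ift88 label, and the groups overlapped. Its log2 fold change was -0.064 (SE 0.27; edgeR's quasi-likelihood test, adjusted p = 0.9995), so the counts do not bear out the label, and directions refer to how the libraries are labelled. The tumour's markers were present: all 8 genes of a WNT medulloblastoma list (Axin2, Lef1, Wif1, Nkd1, Sp5, Notum, Tnfrsf19 and Znrf3) had reads in every library, and their summed level ran from 2801 to 5180 CPM across the controls and from 3581 to 4748 CPM in the libraries labelled sh2-Ift88. Libraries stood apart within groups. The summed level of 10 mature neuron genes was 18.4, 136 and 341 CPM in control 1, 2 and 3 and 181, 137 and 17.9 CPM in sh2-Ift88 1, 2 and 3. Ttr, a choroid plexus gene, was at 1389 CPM in sh2-Ift88 1 and at most at 0.739 CPM elsewhere. Control 2, sh2-Ift88 2 and sh2-Ift88 3 had reads in 387 to 564 of 1249 olfactory receptor rows, against 24 to 38 in the others. The TMM factor of sh2-Ift88 3 was 0.598, against 1.05 to 1.24 in the others.

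The promoters of 4 members are shown. Fzd5 and Rspo4 were chosen as the receptor and the R-spondin whose groups did not overlap. Fzd7 and Wnt5b, whose groups overlapped, were chosen as members with more than 10 CPM in every library and a short TCF/LEF-type motif in a promoter. Each is the 250 bases before the annotated start, from RefSeq on GRCm38.p6, a later build than the mm9 of the counts. Capitals mark a match to ATCAAAG or AACAAAG, searched on both strands, and no window shown holds more than 1 match. The windows are Fzd5 at chr1:64737751-64738000 on the minus strand, Rspo4 at chr2:151842677-151842926 on the plus strand, Fzd7 at chr1:59481897-59482146 on the plus strand, and 1 of 3 annotated starts of Wnt5b at chr6:119449387-119449636 on the minus strand.
Fzd5: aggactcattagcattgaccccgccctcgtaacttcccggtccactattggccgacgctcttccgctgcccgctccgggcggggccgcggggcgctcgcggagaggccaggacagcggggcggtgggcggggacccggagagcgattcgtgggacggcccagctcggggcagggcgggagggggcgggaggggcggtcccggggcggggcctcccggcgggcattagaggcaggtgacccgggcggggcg
Rspo4: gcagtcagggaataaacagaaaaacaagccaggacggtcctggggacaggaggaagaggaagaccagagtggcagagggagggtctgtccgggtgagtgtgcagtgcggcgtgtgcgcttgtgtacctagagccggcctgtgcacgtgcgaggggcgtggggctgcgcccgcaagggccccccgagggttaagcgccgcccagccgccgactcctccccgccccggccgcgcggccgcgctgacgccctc
Fzd7: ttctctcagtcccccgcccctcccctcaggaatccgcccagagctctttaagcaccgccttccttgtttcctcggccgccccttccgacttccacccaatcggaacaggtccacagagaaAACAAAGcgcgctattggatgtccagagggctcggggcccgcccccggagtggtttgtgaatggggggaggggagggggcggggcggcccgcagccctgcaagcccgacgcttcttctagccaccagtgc
Wnt5b: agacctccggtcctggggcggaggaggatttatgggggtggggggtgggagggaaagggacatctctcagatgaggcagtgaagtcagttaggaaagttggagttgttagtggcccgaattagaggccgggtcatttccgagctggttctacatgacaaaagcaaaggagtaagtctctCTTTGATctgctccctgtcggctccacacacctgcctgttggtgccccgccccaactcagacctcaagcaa
The Fzd7 match begins 130 bases before the start, and that of Wnt5b, read on the opposite strand, 71 bases before it. The windows of the other Wnt5b starts, not shown, hold no match. Of the members, 31 matched the promoter table, with 34 promoters, and 4 of these held either motif, those of Dkk1 and Wnt11 being the others. Over all 32851 promoters, 3.21% held ATCAAAG, 5.03% AACAAAG and 8.06% either. A match of these letters is a description of the window and shows no binding.

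**Figure D1:**
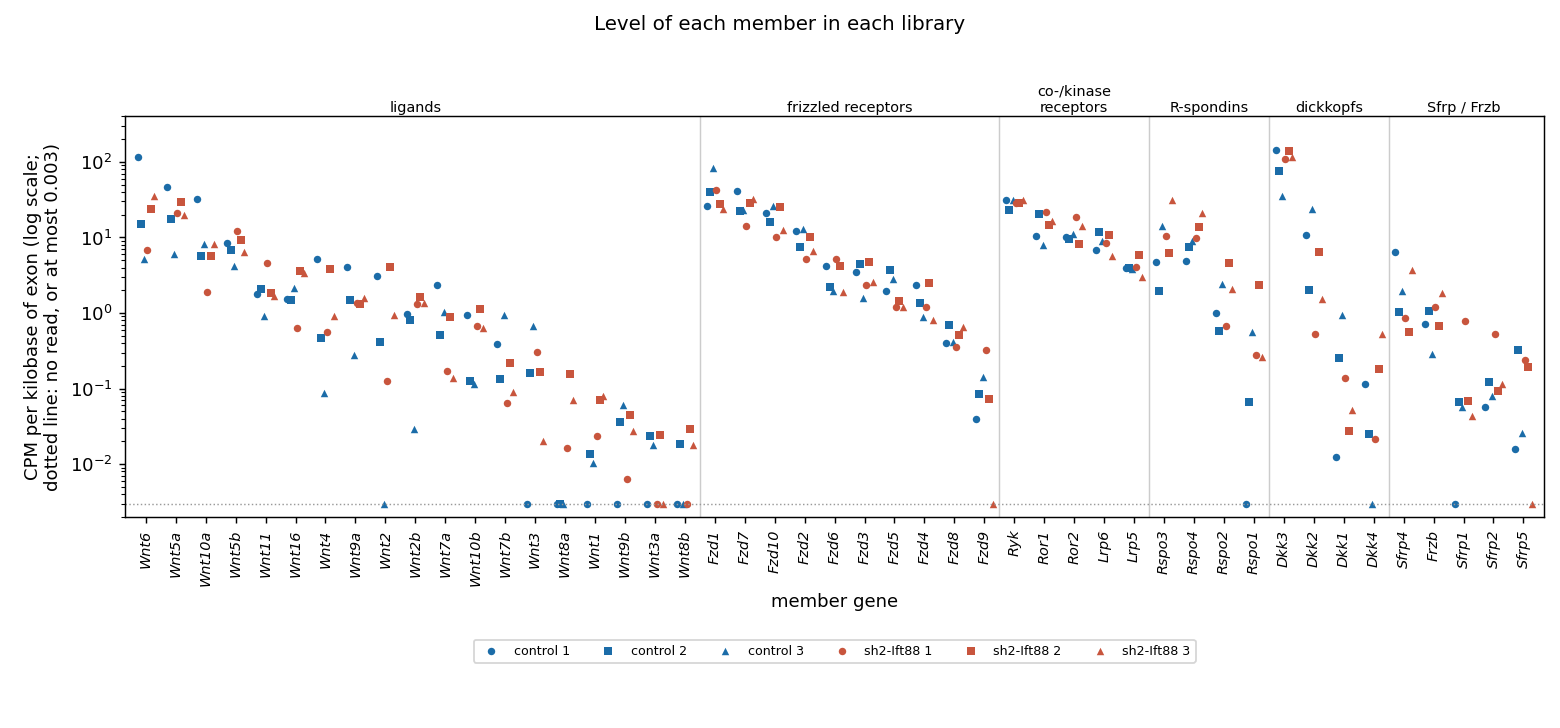
Level of each of the 47 members in each of the 6 libraries, in CPM per kilobase of exon on a log axis, grouped by role and ordered by mean level; blue marks controls and red the libraries labelled sh2-Ift88. Dkk3 had the highest mean level, 103 CPM per kilobase, and Wnt3a, Wnt8a, Wnt8b, Wnt1 and Wnt9b lay at the bottom of the ligands.

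The tumours held reads of nearly the whole family, but few ligands were abundant. In all, 15 of 47 members were at 10 CPM or more in every library, and 8 were under 1 CPM in every library. Between genes, levels were compared per kilobase of exon, with lengths from GENCODE M21. On that scale the highest mean was that of Dkk3, a divergent dickkopf protein, at 103 CPM per kilobase, followed by the receptor Fzd1 at 40.7, the ligand Wnt6 at 34.1, the receptor Ryk at 29.1, the receptor Fzd7 at 26.9 and the ligand Wnt5a at 23.4. The order is not firm, since the ranges over libraries of each pair of neighbours overlapped, and in control 3 Fzd1, at 84.4 CPM per kilobase, lay above Dkk3, at 35.0. Wnt6, Wnt5a, Wnt10a and Wnt5b together made up between 78.2% of the summed per-kilobase ligand level, in sh2-Ift88 2, and 91.0%, in control 1. Their proportions changed from library to library. Wnt6 took 52.2% of the ligand sum in control 1 and 13.2% in sh2-Ift88 1, and Wnt5a took 20.2% in control 3 and 40.7% in sh2-Ift88 1.

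At the other end, the classical ligands of the dorsal midline of the embryonic hindbrain, Wnt1 and Wnt3a, were near the detection limit. Wnt1 had 12 reads and Wnt3a 6 reads over all 6 libraries. Wnt8a had 11 and Wnt8b 6, and Wnt8a had no read in any control. In the 3 libraries with many olfactory receptor rows detected, the level that 95% of those rows did not pass was 0.0650, 0.101 and 0.125 CPM, and in the others it was 0. With equal read counts taken as at the level, Wnt8b was at or under its library's level in all 6 libraries, Wnt3a in 5 and Wnt8a in 4. The other members too low for the test were Wnt9b, Fzd9, Dkk4, Sfrp1 and Sfrp2, with 25 to 152 reads in all. Sfrp1, a ligand-binding inhibitor, was at 3.42 CPM in sh2-Ift88 1, the library with Ttr, and at most at 0.302 CPM elsewhere.

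Of the 47 members, 38 passed edgeR's filter on low counts and were tested together with 16768 genes in all. No member passed the test: 0 of 38 passed an adjusted p of 0.05, as did 0% of all genes (smallest adjusted p = 0.9995). At an unadjusted p of 0.05, the members Fzd5 and Rspo4 stood, 2 of 38, against 3.23% of all genes tested. By sign, 21 members had a higher and 17 a lower fitted level in the libraries labelled sh2-Ift88, where 48.7% of all genes were higher. The median log2 fold change was 0.016 over the tested members and -0.012 over all genes. DESeq2 called 58 genes, edgeR without a filter 6 and limma-voom 0, and none of these was a member.

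Every library of one group lay above every library of the other for 3 tested members. Rspo4 and Wnt2b were higher in the libraries labelled sh2-Ift88, 2 of 38 members against 4.70% of all genes, and Fzd5 was lower, 1 of 38 against 3.69%. Both shares lie near those of all genes. With 1 library left out the count rose to 8 without control 1, 10 without control 2, 5 without control 3, 4 without sh2-Ift88 1, 10 without sh2-Ift88 2 and 8 without sh2-Ift88 3. Fewer libraries separate more often by construction, and between 15.2% and 21.1% of all genes did so in these comparisons. With library totals in place of TMM, all libraries kept, the groups of Rspo4 and Wnt2b overlapped. Fzd5 and Wnt10a were then the 2 members with groups apart, 5.26% of members against 11.2% of all genes.

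**Figure D2:**
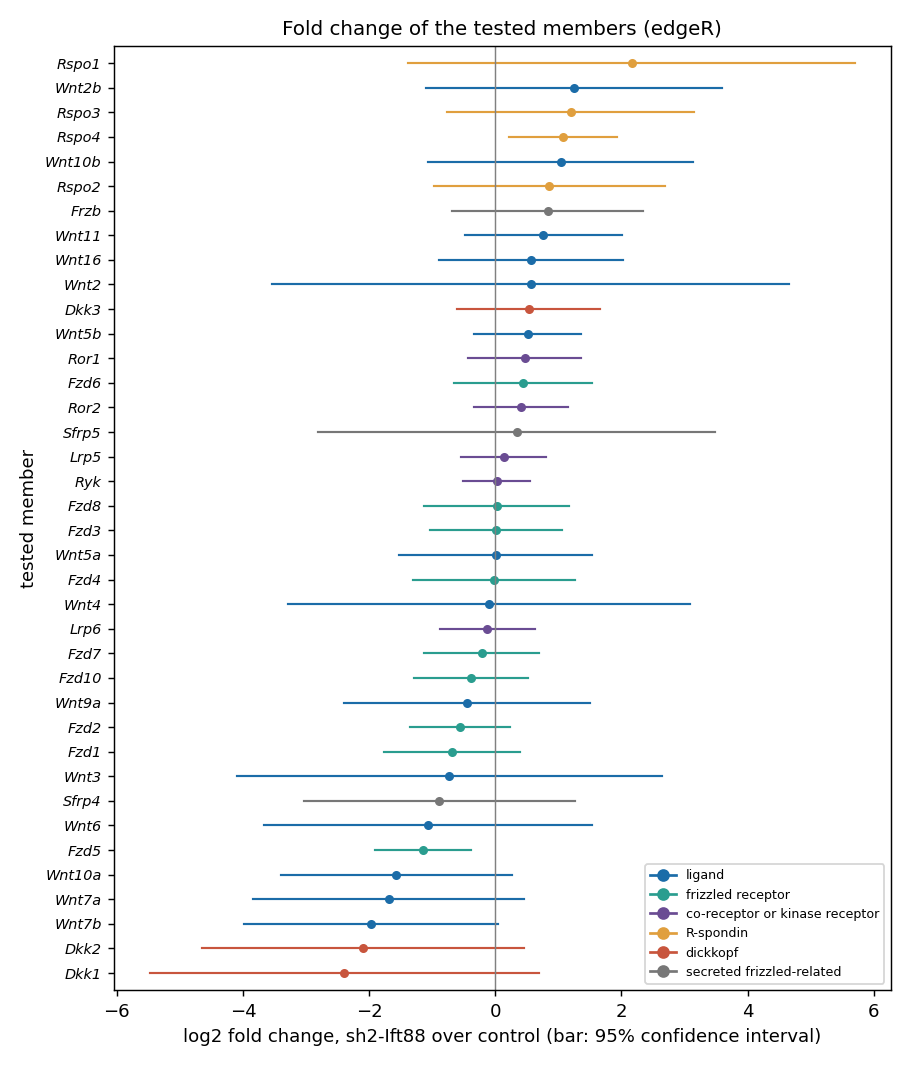
Fitted log2 fold change of the 38 tested members, libraries labelled sh2-Ift88 over control, as points with 95% confidence intervals, coloured by role. The intervals of Fzd5 and Rspo4 leave out 0, the other 36 include it, and no member passed after adjustment over all genes.

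Among the ligands none passed the test, and for Wnt5a, Wnt6, Wnt4 and Wnt9a control 1 was the highest library and control 3 the lowest. Of 14 tested ligands, 7 had a higher and 7 a lower fitted level in the libraries labelled sh2-Ift88, with a median log2 fold change of -0.048. Without control 1, 10 ligands were higher by sign (median 0.79), and without sh2-Ift88 2, 5 were (median -0.56). With limma-voom, all libraries kept, 10 were higher. Control 1 was the highest library for 6 of the 14 (Wnt5a, Wnt6, Wnt10a, Wnt4, Wnt9a and Wnt7a), where 17.8% of all tested genes were highest in it. Control 3 was the lowest for 9 of the 14, where 24.6% of all genes were lowest in it. Summed per kilobase, the ligands were at 226, 52.9 and 30.2 CPM per kilobase in control 1, 2 and 3 and at 51.9, 87.5 and 80.9 in sh2-Ift88 1, 2 and 3.

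Wnt5a, the main ligand of signalling without beta-catenin, had 365, 137 and 47.6 CPM across the controls, against 165, 229.8 and 156 CPM under the sh2-Ift88 label. All 3 of the latter lay inside the span of the controls. The log2 fold change was 0.0048 with a 95% interval of 0.346 to 2.91 times the control level. Wnt5b, its close relative, ran from 11.3 to 22.3 CPM across the controls and from 16.9 to 32.3 CPM in the libraries labelled sh2-Ift88, again with overlap.

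Wnt6 and Wnt10a are neighbours on chromosome 1, and both were highest in control 1. Wnt6 had 259, 32.8 and 11.4 CPM across the controls, against 15.0, 52.8 and 77.6 CPM under the sh2-Ift88 label. Wnt10a had 81.0, 14.1 and 20.5 CPM across the controls, against 4.75, 13.8 and 20.4 CPM under the sh2-Ift88 label. With TMM scaling the groups overlapped for both genes, and sh2-Ift88 1 was the lowest of its group. Wnt10a had a log2 fold change of -1.57 (SE 0.78; unadjusted p = 0.0829, adjusted p = 0.9995 by edgeR's quasi-likelihood test). Without control 1 it was -0.42, and within the 3 libraries with many olfactory receptor reads it turned to 0.27. With library totals alone it was -1.98 (unadjusted p = 0.0214, adjusted p = 0.921 by edgeR's quasi-likelihood test), and the groups of Wnt10a did not overlap. Per kilobase, Wnt6 was between 2.63 and 4.29 times Wnt10a in 5 libraries and 0.627 times it in control 3. RefSeq places 3 further pairs of WNT ligands side by side, and in 2 of these 1 partner had reads and the other almost none: Wnt10b was at 0.396 to 3.86 CPM beside Wnt1, and Wnt9a at 0.939 to 13.4 CPM beside Wnt3a. In the third pair, Wnt3 was at most at 2.08 CPM and Wnt9b at most at 0.272 CPM.

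Several lower ligands ranged over more than 10-fold between libraries of one group. Wnt4, a ligand of epithelial and gonadal development, had 21.8, 1.98 and 0.371 CPM across the controls, against 2.38, 16.3 and 3.87 CPM under the sh2-Ift88 label. Wnt2 had 6.90, 0.943 and 0 CPM across the controls, against 0.283, 9.14 and 2.12 CPM under the sh2-Ift88 label, and Wnt9a was at 13.4, 5.01 and 0.939 CPM and at 4.53, 4.37 and 5.31 CPM. For each of these ligands, control 3 was the lowest library of all. Wnt2b, also lowest in control 3, had 4.09, 3.38 and 0.124 CPM across the controls, against 5.46, 6.89 and 5.62 CPM under the sh2-Ift88 label. Its log2 fold change was 1.24 (SE 0.996; unadjusted p = 0.251, adjusted p = 0.9995 by edgeR's quasi-likelihood test), and 0.67 without control 3. With library totals alone it was 1.01, and the groups of Wnt2b overlapped.

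Wnt7a and Wnt7b, which guide vessel growth in the central nervous system, were low. Wnt7b had 1.91, 0.650 and 4.62 CPM across the controls, against 0.311, 1.08 and 0.437 CPM under the sh2-Ift88 label, a log2 fold change of -1.97 (SE 0.86; unadjusted p = 0.0537, adjusted p = 0.9995 by edgeR's quasi-likelihood test). Without control 3 it was -1.07, and within the 3 libraries with many olfactory receptor reads it turned to 0.23. Wnt7a ran from 1.63 to 7.48 CPM and from 0.437 to 2.82 CPM. Wnt3 and Wnt7b were highest in control 3, the library with the most mature neuron RNA. But Wnt7b was next highest in control 1, where that RNA was low, at 18.4 CPM. Wnt7a was highest in control 1, at 7.48 CPM against 3.29 CPM in control 3. A link to neuron content was not tested. Wnt16 was at 6.44 to 9.25 CPM across the controls, against 2.80 to 15.9 CPM in the libraries labelled sh2-Ift88, and Wnt11 at 3.83 to 8.65 CPM and 6.996 to 19.0 CPM, with its highest value in sh2-Ift88 1.

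**Figure D3:**
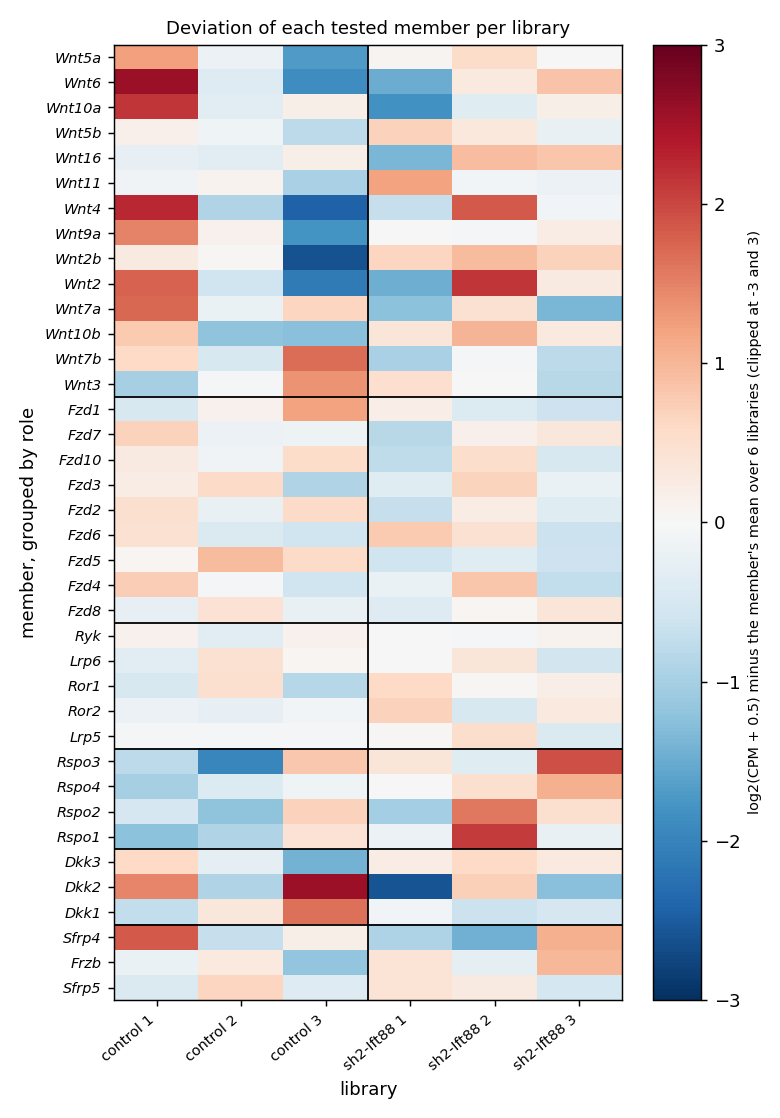
Deviation of each tested member from its own mean over the 6 libraries, in log2(CPM + 0.5), with libraries in columns and members in rows grouped by role; red is above and blue below the mean. The ligand rows Wnt5a, Wnt6, Wnt4, Wnt9a and Wnt2 run from red in control 1 to blue in control 3, while the rows of Ryk and Lrp5 are pale throughout.

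Marker genes of other cells also differed between these libraries, and their part in the ligand values was not tested. Control 1, high in ligands, and sh2-Ift88 3 had the least mature neuron RNA (all 10 listed genes were in the files; Slc17a6 was at 0 in control 3 and Syn1 in sh2-Ift88 3). Control 3, low in ligands, also had the lowest level of Dcn, a fibroblast gene, at 80.3 CPM against 1020 CPM or more elsewhere, while its sum over all 8 fibroblast genes, 3239 CPM, lay within the range of 2504 to 3791 CPM. It had the lowest Otx2, at 31.3 CPM against at least 260.3 CPM elsewhere, and the lowest level of the WNT target Sp5, at 2.69 CPM. Its sum over the whole WNT medulloblastoma list, 2801 CPM, was the lowest, and Wif1 and Tnfrsf19 were lowest there too. Axin2, Lef1, Nkd1, Notum and Znrf3 of that list were not lowest in control 3. In bulk tissue, fewer cells that make a transcript and less of it per cell cannot be told apart.

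No frizzled receptor passed the test. Of 9 tested, 6 had a lower and 3 a higher fitted level in the libraries labelled sh2-Ift88, with a median log2 fold change of -0.21. The split was 8 lower and 1 higher with DESeq2's size factors or with library totals alone, where the median of all genes was -0.036 and -0.33. Without sh2-Ift88 1 it was 5 higher and 4 lower, and without control 1, where 10 are tested, 5 and 5, with medians of 0.052 and -0.017. Fzd1, Fzd7 and Fzd10 had the highest per-kilobase levels. Fzd1 had 110.4, 167 and 354 CPM across the controls, against 176, 116 and 100.4 CPM under the sh2-Ift88 label, and Fzd7 was at 187, 102 and 103 CPM and at 64.6, 128 and 146 CPM. Fzd1 took between 23.2% and 54.8% of the summed per-kilobase frizzled level and Fzd7 between 14.8% and 39.0%. Fzd1 led in control 2, control 3 and sh2-Ift88 1, and Fzd7 in the other libraries.

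Fzd5, a receptor that can signal through beta-catenin, was the member with the smallest p. It had 13.7, 25.7 and 19.7 CPM across the controls, against 8.40, 9.95 and 8.31 CPM under the sh2-Ift88 label. All 3 controls lay above all 3 of the others, at 19.7 ± 5.9996 against 8.89 ± 0.920 CPM (mean ± SD, n = 3 each). On the log2 scale the fold change was -1.15 (SE 0.32), an interval of 0.268 to 0.762 times the control level (unadjusted p = 0.00847, adjusted p = 0.9995 by edgeR's quasi-likelihood test). Across all alternatives it stayed negative, from -1.50 to -0.91, and its smallest adjusted p was 0.208, with DESeq2. In GENCODE M21, 17.8% of its exon bases also lie in a gene model on the opposite strand, and whether the counting used strand is not given in the sources used here, so its reads and those of that model may not be separable.

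The remaining frizzled receptors overlapped between the groups. Fzd10 had 68.4, 52.7 and 84.1 CPM across the controls, against 33.2, 83.1 and 41.0 CPM under the sh2-Ift88 label. Fzd3, which acts in axon growth and cell polarity, was at 45.1, 57.7 and 20.4 CPM and at 29.9, 60.9 and 33.2 CPM. Fzd2 ran from 27.1 to 47.4 CPM across the controls and from 19.2 to 36.9 CPM in the libraries labelled sh2-Ift88. Fzd6 lay between 9.06 and 25.4 CPM, Fzd4, the receptor of norrin in vessels, between 5.37 and 16.9 CPM, and Fzd8 between 2.15 and 4.16 CPM over all 6 libraries.

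**Figure D4:**
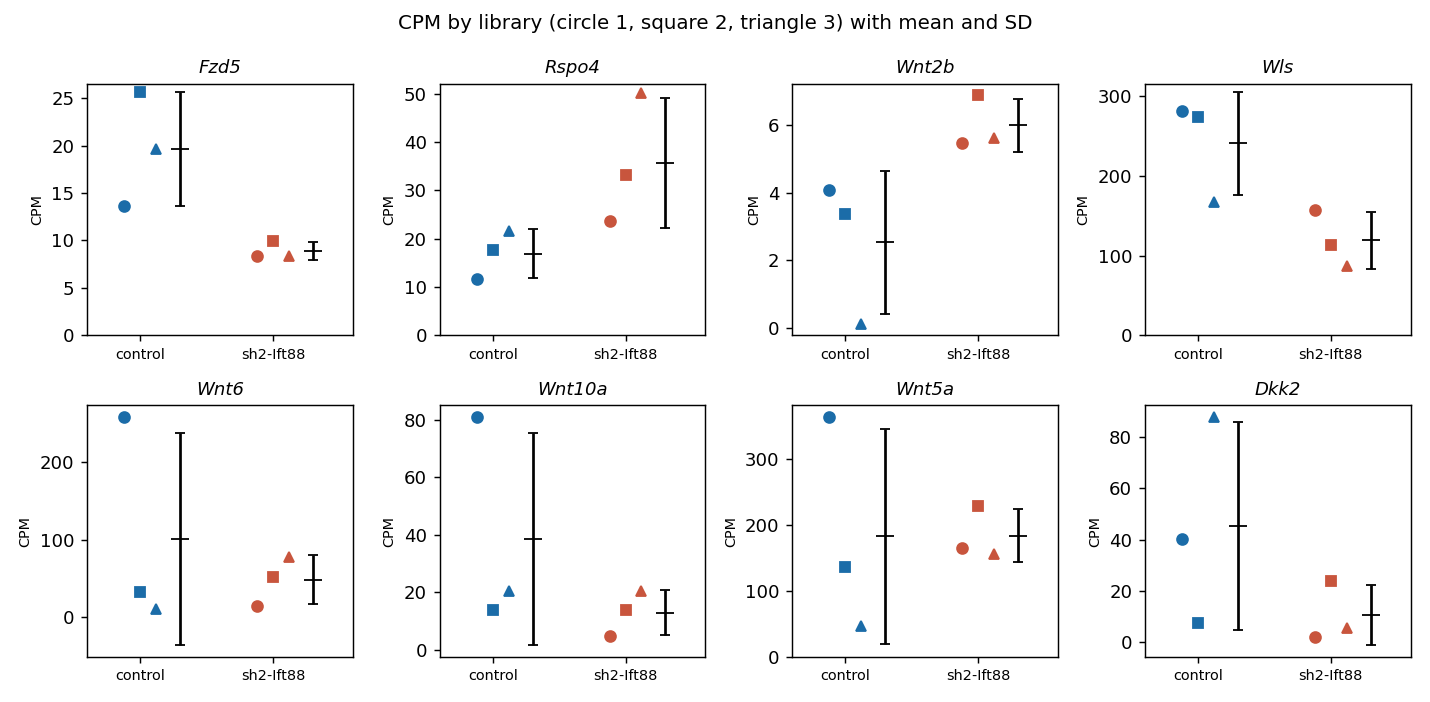
CPM in each library of the 3 members whose groups did not overlap (Fzd5, Rspo4 and Wnt2b), of the ligand carrier Wls, and of Wnt6, Wnt10a, Wnt5a and Dkk2, with the mean and SD of each group beside the points (n = 3 each). For Wnt6, Wnt10a and Wnt5a control 1 stands above every other library, and for Dkk2 control 3 does. Levels use TMM scaling, and with library totals alone the groups of Rspo4 and Wnt2b overlapped.

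The co-receptors and kinase-type receptors ranged over less than 3 times between libraries, and none passed the test. Ryk, a receptor-like pseudokinase, had 143, 105 and 144 CPM across the controls, against 129.7, 129 and 141 CPM under the sh2-Ift88 label, and its highest library was 1.37 times its lowest. The interval of its fold change ran from 0.704 to 1.47 times the control level. Lrp6 was at 93.004, 159 and 121 CPM and at 115, 149 and 78.5 CPM, and Lrp5 at 38.5, 38.5 and 37.5 CPM and at 39.9, 56.7 and 28.9 CPM. The Wnt5a receptors Ror1 and Ror2 overlapped between the groups. Ror1 had 59.4, 116 and 45.3 CPM across the controls, against 126, 84.8 and 95.3 CPM under the sh2-Ift88 label, and Ror2 was at 43.3, 41.0 and 46.5 CPM and at 79.3, 34.9 and 59.8 CPM. For these 5 receptors 4 had a higher fitted level in the libraries labelled sh2-Ift88 and 1 a lower one, but with library totals alone 2 were higher and 3 lower.

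All 4 R-spondins had a higher fitted level in the libraries labelled sh2-Ift88, and none passed the test. Rspo4 had 11.5, 17.6 and 21.5 CPM across the controls, against 23.5, 33.1 and 50.2 CPM under the sh2-Ift88 label. The groups did not overlap, at 16.9 ± 5.01 against 35.6 ± 13.5 CPM (mean ± SD, n = 3 each). On the log2 scale the fold change was 1.08 (SE 0.37), an interval of 1.16 to 3.83 times the control level (unadjusted p = 0.0212, adjusted p = 0.9995 by edgeR's quasi-likelihood test). With library totals alone it was 0.64 (unadjusted p = 0.147 by edgeR's quasi-likelihood test), and the groups of Rspo4 overlapped. So did those of Wnt2b, while those of Wnt10a came apart, so that 2 members had groups apart, Fzd5 and Wnt10a. The log2 fold change of Rspo4 was 0.71 without sh2-Ift88 3. It was 0.47 within the 3 libraries with few olfactory receptor reads, of which 1 is labelled sh2-Ift88.

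Rspo3, at 14.4, 6.11 and 44.3 CPM across the controls, against 32.2, 19.3 and 97.2 CPM under the sh2-Ift88 label, overlapped between the groups, since control 3 lay above 2 of the latter. Rspo2 was at 5.18, 2.99 and 12.6 CPM and at 3.48, 23.5 and 10.7 CPM. Rspo1 was at 0, 0.130 and 1.09 CPM and at 0.538, 4.503 and 0.4997 CPM, so its level came mainly from sh2-Ift88 2. Summed per kilobase, the R-spondins were at 10.6, 10.1 and 26.4 CPM per kilobase in the controls and at 21.3, 27.1 and 55.0 in the libraries labelled sh2-Ift88, and control 3 lay above sh2-Ift88 1. The 55.0 belongs to sh2-Ift88 3, whose TMM factor of 0.598 raises its levels. With library totals alone the median log2 fold change of the 4 R-spondins was 0.60, against 1.13 with TMM. All 4 kept a positive fold change under each of the 3 scalings and with each library left out in turn, but 2 of 4 were higher within the 3 libraries with few olfactory receptor reads.

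Of the dickkopf proteins, Dkk3 was high in every library and Dkk2 ranged widely. Dkk3 had 477, 254 and 117 CPM across the controls, against 366, 473 and 385 CPM under the sh2-Ift88 label. As for the ligands, control 1 was highest and control 3 lowest. Dkk2, an inhibitor at Lrp6, had 40.4, 7.41 and 87.9 CPM across the controls, against 1.98, 24.0 and 5.68 CPM under the sh2-Ift88 label, so that control 2 lay below sh2-Ift88 2. Its highest library was 44.4 times its lowest, and the log2 fold change was -2.10 (SE 1.09; unadjusted p = 0.0934, adjusted p = 0.9995 by edgeR's quasi-likelihood test). Without control 3 it was -1.19, without sh2-Ift88 2 it was -3.58, and within the 3 libraries with many olfactory receptor reads it turned to 0.99. Dkk1, an inhibitor and WNT target, had its highest level in control 3 as well, at 2.27 CPM, and was between 0.0303 and 0.618 CPM elsewhere.

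The secreted frizzled-related proteins were low. Sfrp4 had 26.8, 4.26 and 8.18 CPM across the controls, against 3.54, 2.32 and 15.5 CPM under the sh2-Ift88 label, with overlap. Frzb ran from 0.939 to 5.996 CPM and Sfrp5 reached 0.618 CPM at most. Summed per kilobase, this class lay between 1.58 and 7.21 CPM per kilobase, against 82.3 to 154 for the frizzled receptors.

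Among genes averaging 1 CPM or more in their higher group, the highest library was at least 8 times the lowest, or the lowest had no read, for 13 of 35 tested members and for 13.8% of all genes. The median size of the log2 fold change, signs set aside, was 0.57 over the tested members and 0.29 over all genes, with no member past the test.

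Other WNT genes from lists of non-members were read from the same fit, and 0 of them passed the test over all genes. Of 25 tested proteins that act at the receptor level outside the rule, 11 had a higher and 14 a lower fitted level, with a median log2 fold change of -0.15. Wls, the carrier that every lipid-modified WNT ligand needs for secretion, had 282, 274 and 167 CPM across the controls, against 157, 114 and 86.4 CPM under the sh2-Ift88 label. The groups did not overlap, and the log2 fold change was -1.02 (SE 0.33; unadjusted p = 0.0168, adjusted p = 0.9995 by edgeR's quasi-likelihood test). Wls was the 1 gene of these 25 with groups apart, where 3.69% of all genes lay apart and lower. It was also the 1 of 25 with an unadjusted p below 0.05 by that test, against 3.23% of all genes. Lgr4, the R-spondin receptor, was at 385, 269 and 267 CPM and at 333, 346 and 614 CPM, with overlap. The 614 CPM came from sh2-Ift88 3, where levels depend on its TMM factor of 0.598. Kremen1, a receptor of dickkopf proteins, ran from 81.1 to 212 CPM and from 78.9 to 108 CPM, and Notum, the enzyme that removes the WNT lipid, from 139 to 389 CPM and from 133 to 185 CPM.

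Of 33 tested genes of the signal inside the cell, 16 were higher and 17 lower by sign (median -0.0026). The groups did not overlap for 3 higher ones, where 4.70% of all genes had such groups, among them Cby1, an inhibitor of beta-catenin found at the ciliary base, at 23.8, 30.2 and 21.3 CPM and 31.2, 38.1 and 42.6 CPM, and Tnks, at 104 to 139 CPM and 143 to 164 CPM. They also did not overlap for 1 lower gene, against 3.69% of all genes, which was Dvl2, at 41.8 to 43.8 CPM in the controls and 27.5 to 37.9 CPM in the libraries labelled sh2-Ift88. In sh2-Ift88 3 the levels of Cby1 and Tnks depend on its TMM factor of 0.598. Whether the groups of these genes stay apart with library totals alone is not given here. Pygo2 ran from 46.5 to 66.4 CPM and from 32.6 to 46.5 CPM. Of 21 tested genes of the polarity and calcium branches, 14 were higher and 7 lower by sign (median 0.071). Prickle1, a polarity protein, had 76.4, 70.3 and 27.7 CPM across the controls, against 212, 100.3 and 78.8 CPM under the sh2-Ift88 label, without overlap, and Ankrd6 was at 27.2, 41.9 and 34.0 CPM and at 23.8, 15.9 and 21.7 CPM, lower without overlap. They were the 1 higher and 1 lower of 21 with groups apart, against 4.70% and 3.69% of all genes. The level of Prickle1 in sh2-Ift88 3 depends on the same TMM factor. With library totals alone its groups overlapped, while those of Ankrd6 stayed apart. Plcb1 and Rac1 overlapped, at 51.6 to 95.9 and 69.6 to 224 CPM for Plcb1 and at 142 to 190 and 178 to 271 CPM for Rac1.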

How the data were processed

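Per the labels' protocols, the authors made stranded total RNA libraries (TruSeq). The submitters' processing notes name BWA and mm9. Which program, annotation and strand setting produced the counts is not given in the sources used here. Each library has 1 deposited table of raw counts, whole numbers of reads for 34591 gene rows. The closing tallies, kept out of library sizes and tests, held 18.8% to 39.5% of reads without a feature, 0.876% to 4.37% ambiguous and 2.93% to 10.2% not aligned.

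Groups came from the sample descriptions, with replicate numbers in accession order. No library repeated another: chi-square per gene between libraries of a group was 297 to 1254, where sampling noise gives about 1. Counts were fitted over all genes with edgeR 4.0.16 in R 4.3.3 (filterByExpr, TMM, glmQLFit with robust=TRUE, glmQLFTest, two-sided, Benjamini-Hochberg adjustment, threshold 0.05), after a check on simulated data. CPM uses TMM-scaled library sizes. Exon lengths are unions from GENCODE M21. Coordinates of the counted genes in mm9 were not used here.

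The members and lists were chosen with earlier results of these data known. Members given in every library had groups that did not overlap (averaging 1 CPM or more in their higher group), were among the 12 highest by mean CPM, or were among the 10 of widest range with at least 2 CPM in the highest library; fold changes are given for the first kind and the 5 of smallest p, and up to 4 genes of smallest p for each list of non-members. The fold change of Wnt5a, the interval of Ryk, the values of Rspo2 in every library, and Dcn, Otx2, Ttr and Sp5, were chosen after their values were seen. Alternatives were DESeq2 1.42.0 and its size factors in edgeR, library totals, limma-voom (limma 3.58.1), robust=FALSE, no filter, a filter of 1 CPM in 3 libraries, small and mitochondrial RNA genes left out, a term for and fits within libraries by more than 100 olfactory receptor rows detected, and each library left out.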

Additional observations from a re-analysis of the deposited data

How the results depend on the processing

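No member was called under any of the 17 alternatives, and the smallest adjusted p of a member in any of them was 0.208, for Fzd5 with DESeq2. The number of genes called, 0 in edgeR, was 58 with DESeq2 and 6 without a filter. The median log2 fold change of the tested members, 0.016, was -0.21 with library totals alone, 0.27 within the 3 libraries with many olfactory receptor reads (1 control) and -0.22 within the 3 others (1 labelled sh2-Ift88). Leaving out 1 library in turn gave -0.19 (without sh2-Ift88 2) to 0.33 (without control 1). The count of tested members whose groups do not overlap, 3, was 5 without a filter, where more low genes are tested, and 23 and 26 within the same sets of 3 libraries, where 59.0% and 63.4% of tested members and 65.4% and 62.0% of all genes separated, since 1 library stands alone. With 1 library left out it ran from 4 to 10, and with library totals alone it was 2, Fzd5 and Wnt10a. Signs turned within the 3 libraries with many olfactory receptor reads for Dkk2 (0.99), Wnt10a (0.27) and Wnt7b (0.23). For Ift88 they turned within the others (0.061) and without control 2 (0.13), where the leave-one-out values began at -0.16. The cause was not tested. Fzd5, Rspo4 and Wnt2b kept their sign in every alternative. No paired analysis was possible because the labels give no replicate numbers. Depth limits Wnt1, Wnt3a, Wnt8a and Wnt8b, with 6 to 12 reads over all libraries, for which no difference was detectable.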
